A study of Mus musculus with 8 samples.

Results

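Toll-like receptors are membrane proteins that bind microbial molecules and signal through adaptors such as MYD88, and several need a partner protein. TLR4 binds lipopolysaccharide only together with MD-2 (Ly96), TLR2 pairs with TLR1 or TLR6 to bind lipopeptides, TLR5 binds flagellin, and TLR3 and TLR9 read double-stranded RNA and CpG-rich DNA inside endosomes. CD180 (RP105) is a relative of TLR4 that B cells carry on their surface, and its partner MD-1 is encoded by Ly86, a relative of Ly96. B cells respond directly to several of these ligands, among them lipopolysaccharide and CpG-rich DNA.

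CpG methylation is given here at 10 genes of this family, Tlr1, Tlr2, Tlr3, Tlr4, Tlr5, Tlr6, Tlr9, Cd180, Ly86 and Ly96. They were taken by name from 21755 protein-coding genes, each as its gene record in GENCODE release M21 on mouse build mm10 with 10 kb on either side. The 10 loci held 4357 CpGs that were listed in all 4 deposited libraries, of 18684786 such CpGs on the autosomes and X. Per locus, between 81.0% (Tlr4) and 98.7% (Tlr9) of the CG dinucleotides of the reference were listed in all 4. The loci of Tlr1 and Tlr6 are neighbours on chromosome 5 and overlap in their flanks, where each CpG was counted once.

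Spleens of C57BL/6J mice gave the resting CD43- B cells and the naive CD4+ T cells. The mice were aged 6 to 8 weeks, with no altered allele and no treatment named in the labels. T cells were depleted of other lineages and then sorted as CD62Lhi CD44lo CD25-, and each biological replicate pooled cells of several animals. The labels give 8 samples in 4 groups of 2 (B and T cells of each sex), but both samples of a group name 1 file, so 4 libraries were compared and none has a replicate spread of its own. The assay was oxidative bisulfite sequencing of the whole genome (WGoxBS), in which oxidation before bisulfite is meant to remove the signal of 5-hydroxymethylcytosine. The study's methods, however, describe the protocol as reading methylated and hydroxymethylated DNA alike. The files do not settle which holds, so a level given here may include some 5-hydroxymethylcytosine.

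Depth set the precision. The libraries held 280919817 (male B cells) to 354634149 (female B cells) reads at CpGs, and within the loci the median ran from 12 to 21 reads per CpG. A level is the methylated share of all reads over the CpGs of a region, a difference is the mean of both B cell levels minus the mean of both T cell levels, in percentage points, and the values after the read counts are 95% Wilson intervals, which cover counting error only. The promoters of 6 B cell genes (Cd79a, Cd79b, Ms4a1, Cd22, Blk and Fcrla) were all called lower in B cells, with levels of 8.36% to 28.7% in female B and 40.7% to 95.2% in female T cells. Those of 6 T cell genes (Cd3d, Cd3e, Cd3g, Cd247, Lck and Cd6) were all called higher in B cells, with levels of 66.6% to 94.9% in male B and 1.04% to 20.7% in male T cells. In the 4 fits without 1 library 7 of these 12 calls were kept each time, while Cd79a and Cd6 were kept in 2, Cd79b and Cd22 in 1 and Blk in 0 of them. Of 9 tested promoters of myeloid genes none was called by edgeR, although Lyz2 (a difference of -16.8 points, adjusted p = 0.000922) and Itgam (higher in B cells, adjusted p = 0.00226) passed the adjusted p alone. The medians over the 9 were 79.1% and 74.2% in female and male B cells and 72.4% and 78.2% in T cells. The lowest myeloid level was 37.8%, at Fcgr1 in female T cells, and the part of such cells in the results was not tested.

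The first question was where the promoters of these genes, taken as 1 kb before to 1 kb after the gene start, stood in each cell type. Ly86, Tlr9 and Cd180 had promoters that were less methylated in B cells and were called. Tlr6 and Ly96 lay the other way, with more methylation in B cells, and Tlr1 was lower in B cells by less than the required size. The promoters of Tlr2, Tlr3, Tlr4 and Tlr5 were at 31.0% or below in every library and did not pass the test. A call needed an adjusted p under 0.05 in edgeR's quasi-likelihood test over all 20501 tested promoters and a difference of at least 20 points. By this rule 3 of the 10 promoters were called lower in B cells, against 0.410% of all tested promoters, and 0 were called higher, against 0.956%. At the adjusted p alone 6 of the 10 passed, against 19.9% of all. The median difference was -3.68 points over the 10 promoters and 0.970 over all tested ones.

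**Figure D1:**
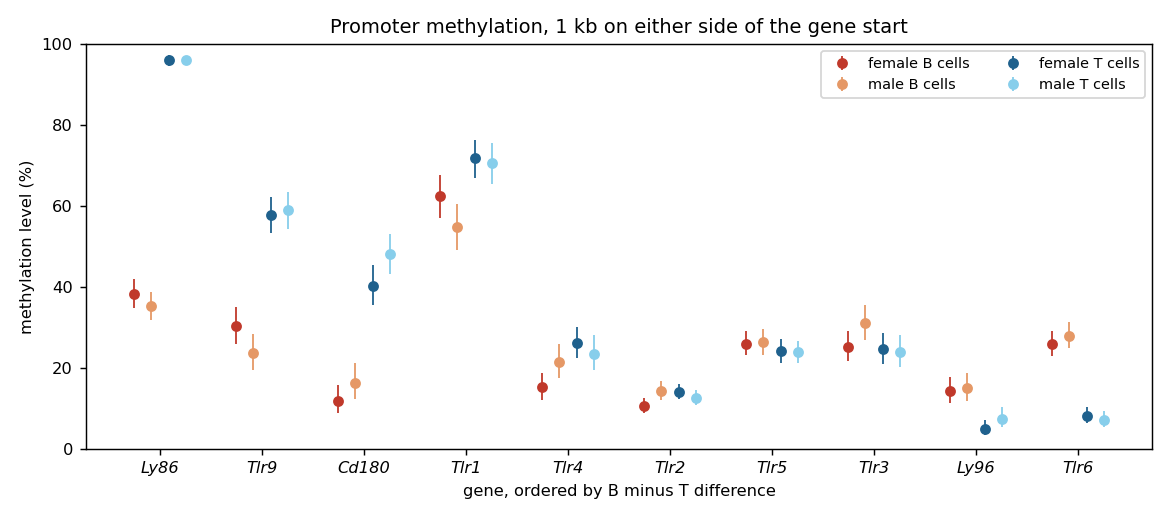
Promoter methylation level (%, y axis) of the 10 genes in the 4 libraries, ordered by the B minus T difference. Points are levels over all reads and bars are 95% Wilson intervals. At Ly86 both T cell libraries sit at 96.1% and both B cell libraries at 38.2% or below, whereas at Tlr6 and Ly96 the B cell points lie above the T cell points.

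Ly86, which encodes MD-1, had the largest promoter difference of the family. Its promoter (chr13:37344208-37346208, 47 CpGs) had a level of 38.2% in female B cells (709 reads, 34.7% to 41.9%), 35.3% in male B cells (763 reads, 31.9% to 38.7%), 96.1% in female T cells (856 reads, 94.6% to 97.2%) and 96.1% in male T cells (1025 reads, 94.7% to 97.1%). Both B cell libraries lay far below both T cell libraries, with differences of -57.9 points in females and -60.8 in males. The difference of -59.4 points (edgeR adjusted p = 3.80e-89) ranked at place 28 by size among all tested promoters. Over the 1 kb before the start alone it was -23.2 points and still called (adjusted p = 3.52e-14). T cells had no dip at this gene start in the CpG profiles, while in B cells a stretch of 21 CpGs under 50% ran from 62 bases before the start to 450 bases after it in females. Within the 1-kb tile over the start the levels were 24.0% and 23.8% in female and male B cells and 95.9% and 96.3% in T cells.

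For 6 loci the run of 4 or more CpGs with the largest difference inside the leading tile is printed here, to show the letters and the spacing of the sites that carry each difference, with CG dinucleotides in capitals, read from the RefSeq GRCm38 reference along the gene's strand. They were picked by their values, so their levels are a description. Each run is printed with 15 bases on either side. A CG in those outer bases, as at Cd180, Tlr6 and Tlr5, is in capitals but not in the levels. The first stretch starts in the first coding exon of Ly86 and runs into the first intron of its coding transcript, and its 5 measured CpGs stood at 17.6% and 17.3% in female and male B cells, with 89.9% and 92.0% in T cells.
Ly86, chr13:37345470-37345653 (plus strand): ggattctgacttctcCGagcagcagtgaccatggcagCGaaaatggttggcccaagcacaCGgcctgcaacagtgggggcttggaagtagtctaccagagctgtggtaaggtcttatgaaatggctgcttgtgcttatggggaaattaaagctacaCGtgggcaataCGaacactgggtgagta
The second lies between genes, from -3293 to -3084 bases relative to the start of Cd180, with the 4 CpGs of its run at 16.7% and 17.5% in female and male B cells and 84.4% and 87.9% in T cells.
Cd180, chr13:102690265-102690474 (plus strand): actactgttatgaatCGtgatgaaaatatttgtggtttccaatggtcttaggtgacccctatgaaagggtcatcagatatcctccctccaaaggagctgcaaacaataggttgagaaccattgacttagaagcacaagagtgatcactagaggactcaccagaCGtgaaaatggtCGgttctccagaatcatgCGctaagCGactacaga
The third lies between genes, from -1339 to -1186 bases relative to the start of Tlr9, with 4 measured CpGs at 2.97% and 3.51% in female and male B cells and 95.8% and 93.6% in T cells, the widest gap of those printed.
Tlr9, chr9:106221259-106221412 (plus strand): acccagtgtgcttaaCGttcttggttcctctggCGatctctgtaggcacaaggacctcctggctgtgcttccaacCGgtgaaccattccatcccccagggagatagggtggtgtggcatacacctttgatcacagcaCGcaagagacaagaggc
The fourth is in an intron of Tlr6, 963 to 1079 bases inside the gene, where B cells were the methylated side. The 4 CpGs of its run stood at 33.8% and 42.6% in female and male B cells, and 0 of 46 and 0 of 64 reads were methylated in female and male T cells.
Tlr6, chr5:64959018-64959134 (minus strand): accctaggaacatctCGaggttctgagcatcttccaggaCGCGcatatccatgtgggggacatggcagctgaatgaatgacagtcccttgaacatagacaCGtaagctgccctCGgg
The fifth, from -653 to -378 bases relative to the start of Ly96, was also higher in B cells, at 78.2% and 62.1% against 17.9% and 22.2% in T cells.
Ly96, chr1:16687398-16687673 (plus strand): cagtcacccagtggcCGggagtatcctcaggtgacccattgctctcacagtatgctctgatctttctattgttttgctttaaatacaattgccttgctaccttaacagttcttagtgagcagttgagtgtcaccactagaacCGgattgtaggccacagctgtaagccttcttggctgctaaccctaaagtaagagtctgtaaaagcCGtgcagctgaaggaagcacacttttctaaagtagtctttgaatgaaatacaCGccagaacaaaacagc
The last is in an intron of Tlr5, 4736 to 4822 bases inside the gene, at 15.8% and 5.08% in B cells and 67.6% and 64.3% in T cells.
Tlr5, chr1:182959524-182959610 (plus strand): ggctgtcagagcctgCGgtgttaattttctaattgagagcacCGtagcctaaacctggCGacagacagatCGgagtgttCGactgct

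Cd180, the partner of MD-1, showed the broadest difference. Its promoter (chr13:102692558-102694558, 21 CpGs) had a level of 11.8% in female B cells (338 reads, 8.81% to 15.7%), 16.3% in male B cells (252 reads, 12.2% to 21.3%), 40.3% in female T cells (365 reads, 35.4% to 45.4%) and 48.0% in male T cells (381 reads, 43.1% to 53.0%). B and T cells did not overlap, and T cells were at intermediate levels rather than fully methylated. The difference was -30.1 points (edgeR adjusted p = 1.99e-17). Over the 1 kb before the start alone it was -10.6 points and the call was lost (adjusted p = 0.180).

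Tlr9, the endosomal receptor for CpG-rich DNA, was called in the same direction. Its promoter (chr9:106221598-106223598, 21 CpGs) was at 30.3% in female B cells (380 reads, 25.9% to 35.1%), 23.6% in male B cells (343 reads, 19.4% to 28.4%), 57.8% in female T cells (460 reads, 53.3% to 62.3%) and 58.9% in male T cells (431 reads, 54.2% to 63.5%). The T cell libraries were 27.6 points above the B cell library in females and 35.3 in males. The difference was -31.4 points (edgeR adjusted p = 7.01e-15). Fits that left out 1 library had no sex term, and there the Tlr9 call was lost without male B cells (adjusted p = 0.0953) and without either T cell library (0.168 and 0.165) and the Cd180 call without any 1 of the 4 (0.0524 to 0.153). In the same fits on autosomes alone, added after the data were seen, both calls were kept in all 4.

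Tlr6, one of the partners of TLR2, had the largest promoter difference toward more methylation in B cells. Its promoter (chr5:64959097-64961097, 45 CpGs) was at 25.9% in female B cells (798 reads, 23.0% to 29.1%), 27.9% in male B cells (739 reads, 24.8% to 31.2%), 8.16% in female T cells (833 reads, 6.49% to 10.2%) and 7.14% in male T cells (686 reads, 5.44% to 9.32%). B cells were thus above T cells in both sexes, and the difference of 19.3 points (edgeR adjusted p = 1.37e-15) stopped just short of the required 20. It was called higher in B cells with 500 bases on either side of the start (23.5 points) and without female B cells (20.2 points, adjusted p = 0.0351, and 9.64e-13 on autosomes alone), and over the 1 kb before the start alone it was 12.1 points (adjusted p = 0.0161). Ly96, the partner of TLR4, moved the same way by a smaller amount. The levels of its promoter (chr1:16687051-16689051, 28 CpGs) were 14.2% and 14.9% in female and male B cells and 4.92% and 7.47% in T cells, a difference of 8.38 points (edgeR adjusted p = 2.08e-05), and over the 1 kb before the start alone it was 28.1 points and called (adjusted p = 0.000151).

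Tlr1, the other partner of TLR2, was the most methylated promoter of the family in B cells. Its levels (chr5:64932563-64934563, 23 CpGs) were 62.5% in female B, 54.8% in male B, 71.9% in female T and 70.7% in male T cells, which did not overlap between cell types. The difference of -12.6 points passed edgeR's test (adjusted p = 0.00739) below the required size. Over the 1 kb before the start alone it was -25.0 points and called (adjusted p = 0.0149). With CpGs of at least 10 reads it fell to -5.68 points and no longer passed (adjusted p = 0.395), the unweighted mean over CpGs was -6.69 points, and it did not pass with limma (0.139), with 500 bases on either side (0.182) or without any 1 library (0.109 to 0.449).

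The promoters of the remaining receptors did not pass. Tlr2 was at 10.5% and 14.3% in female and male B cells and 14.0% and 12.5% in T cells, so the cell types overlapped, and the sign of its difference of -0.868 points turned under several alternatives. Tlr3 was at 25.2% and 31.0% in B cells and 24.6% and 23.9% in T cells, with a difference of 3.85 points that turned to -2.23 as an unweighted mean over CpGs. Tlr4 was at 15.2% and 21.4% in B cells and 26.1% and 23.5% in T cells, a difference of -6.49 points (edgeR adjusted p = 0.0686) that passed the adjusted p with CpGs of at least 10 reads, at -8.73 points (adjusted p = 0.00509). That of Tlr4 shrank to -1.93 points with 500 bases on either side and to -0.560 over the 1 kb before the start alone. Tlr5, the flagellin receptor, was at 26.0% and 26.3% in B cells and 24.1% and 23.9% in T cells, a difference of 2.18 points. The reference sequence of these promoters was sparse in CpGs in different degrees, with 21 CG sites at Tlr9 and Cd180 and 55 at Tlr2. The ratio of observed to expected CpGs ran from 0.146 (Tlr9) to 0.547 (Tlr6).

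The next question was whether the bodies and flanks of the genes followed the promoters. Gene bodies, from 1 kb inside the start to the end of the gene record, were methylated at 79.7% to 93.9% in every library at 9 of the 10 genes. Tlr9 was the exception, at 50.2% in female B, 54.0% in male B, 62.4% in female T and 60.5% in male T cells, a difference of -9.36 points (edgeR adjusted p = 0.000393). With a required size of 10 points, 0 of the 10 bodies were called lower or higher in B cells, and limma called 0 as well. Over all 20353 tested bodies 0.595% were called lower and 4.96% higher in B cells. At the adjusted p alone 5 of the 10 passed, against 42.8% of all bodies. These were Tlr4 (2.69 points), Tlr6 (4.09), Tlr9 (-9.36), Cd180 (-3.32) and Ly86 (-3.15). The body of Tlr9 crossed the required size as an unweighted mean over CpGs (-11.6 points, a size with no test of its own), without male B cells (-11.2) and when male T cells were left out (-10.3). With limma none of the 5 bodies passed the adjusted p (0.0538 to 0.0679).

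**Figure D2:**
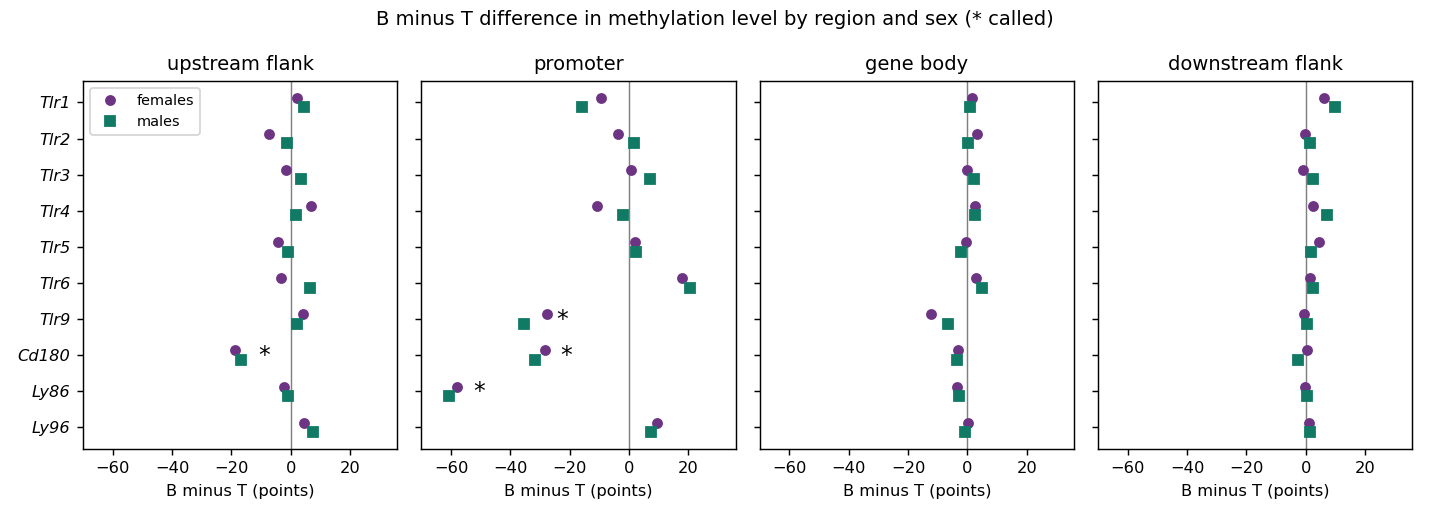
B minus T difference in methylation level (percentage points, x axis) of the 10 genes by region, with females as circles and males as squares. Asterisks mark the called regions, 3 promoters and the upstream flank of Cd180. Among bodies and downstream flanks the widest difference is that of the Tlr9 body in females.

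Flanks showed few differences. Upstream flanks were at 70.9% or above in every library except at Tlr6, whose flank was at 61.5% or below, and downstream flanks were at 72.5% or above. At Tlr6 the kb farthest from the start, with 35 of the flank's 112 CpGs, was at 2.8% or below in every library. The upstream flank of Cd180, from 10 kb to 1 kb before the start, was at 70.9% in female B cells, 73.2% in male B cells, 89.6% in female T cells and 90.1% in male T cells. That difference of -17.8 points (edgeR adjusted p = 1.48e-32) made it the 1 upstream flank of 10 that was called lower in B cells, against 0.718% of 21455 tested flanks, and none was called higher, against 4.01%. At the adjusted p alone 5 of 10 upstream flanks passed, against 25.1% of all. The other 4 were Ly96 (5.95 points), Tlr4 (4.23), Tlr1 (3.36) and Tlr2 (-4.19). Leaving out 1 library gave 1.62 to 6.84 points at Tlr4 and -6.14 to -2.25 at Tlr2, and Tlr2 did not pass with limma (adjusted p = 0.129). Downstream, over the 10 kb past the gene end, edgeR and limma called 0 of 10, against 0.549% of 21491 called lower and 3.49% called higher in B cells. Those of Tlr1 (7.99 points), Tlr4 (4.74) and Tlr6 (1.88) passed the adjusted p alone, against 26.3% of all, and Tlr1 reached 10.1 points as an unweighted mean over CpGs. Leaving out 1 library gave 3.02 to 6.47 points at Tlr4 and 1.31 to 2.45 at Tlr6. The gene record of Tlr4 spans 102701 bases, and its body and downstream flank follow that whole record.

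Tiles of 1 kb gave the position of the differences within each locus. Of 375 tiles tested in the 10 loci, 24 were called lower in B cells (6.40%, against 0.812% of all 1530528 tested tiles) and 5 higher (1.33%, against 2.36%). All 29 differed in the same direction in both sexes, and 26 reached 20 points in both sexes. A call requires a mean difference of 20 points over both sexes, so this agreement is largely set by that rule. The median difference was 0.833 points over the 375 tiles and 0.788 over all tested tiles. Of the 24 tiles lower in B cells, 20 belonged to Cd180, Tlr9 and Ly86, which had 11, 5 and 4. Of the 29 called tiles 3 held the gene start, 15 lay further inside the gene, 8 upstream and 3 downstream.

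**Figure D3:**
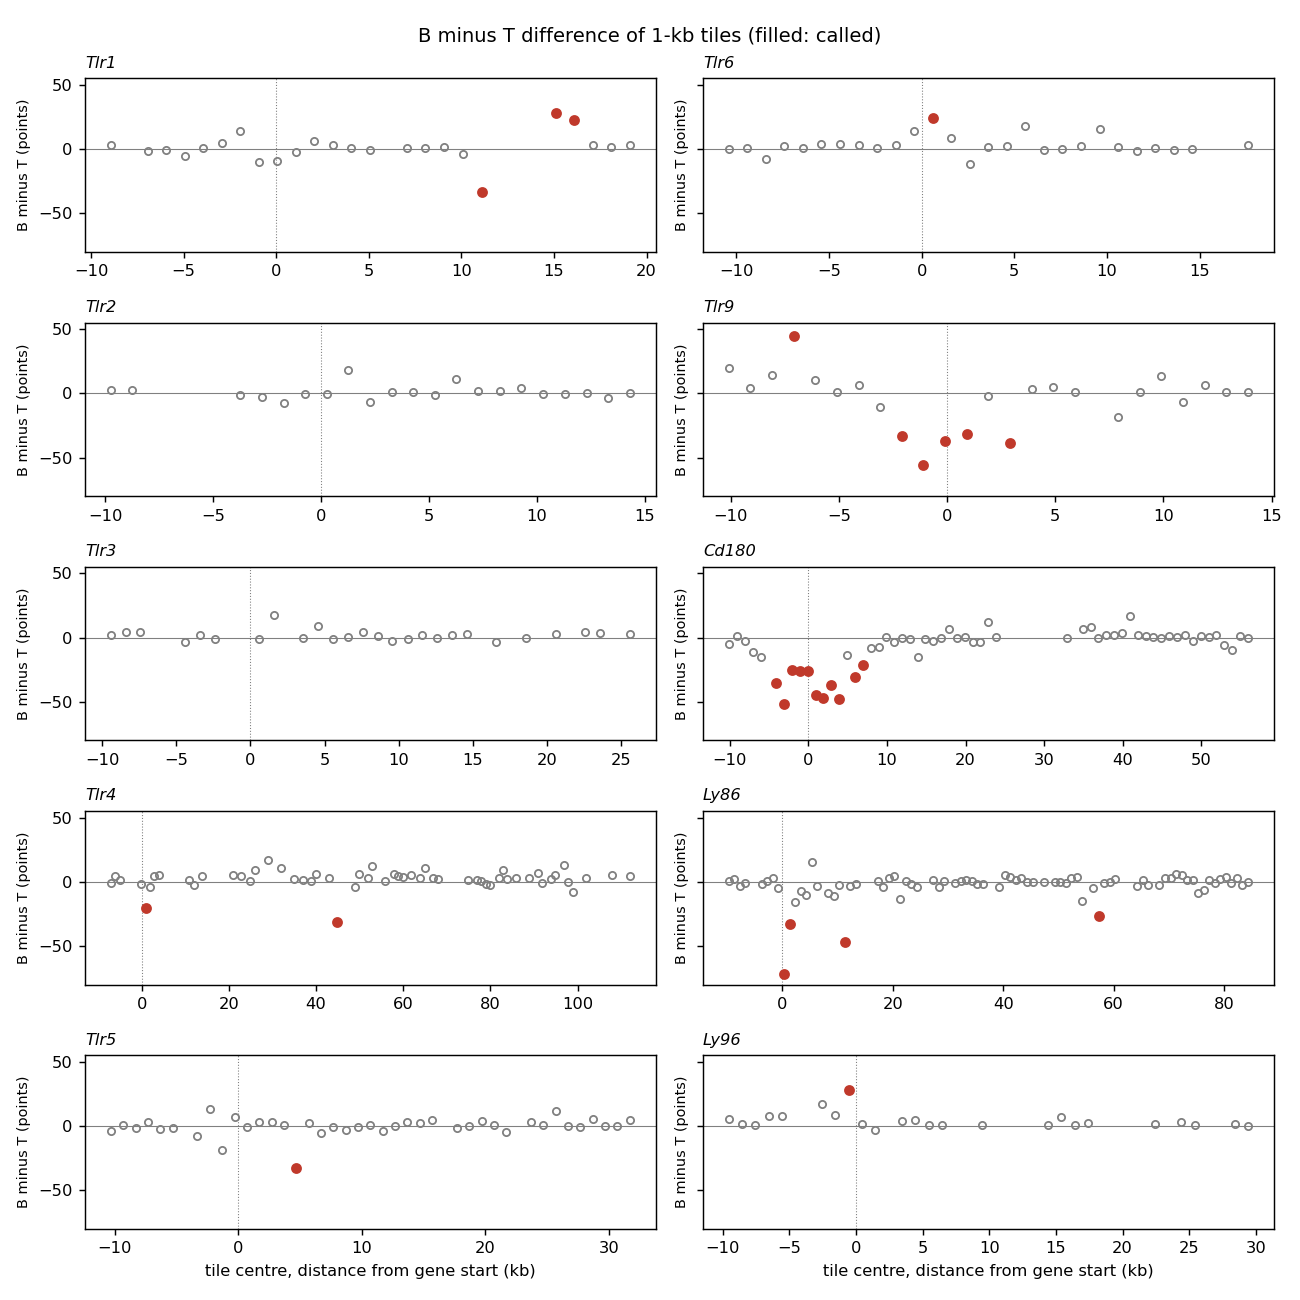
B minus T difference (percentage points, y axis) of every tested 1-kb tile against the distance of its centre from the gene start (kb, x axis, which differs between panels), with filled points for called tiles. The called tiles of Cd180 cluster around the gene start with 1 uncalled tile among them, Ly86 has a pair of neighbouring called tiles at its start and 2 far inside the gene, those of Tlr4 are isolated, and Tlr2 and Tlr3 have none.

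At Cd180 the called tiles covered 11 of the 12 tiles from 4.06 kb before the start to 6.94 kb after it, all lower in B cells by 21.7 to 51.4 points. The leading one (chr13:102690001-102691000, between genes, 11 CpGs) was at 29.3% in female B, 37.4% in male B, 85.0% in female T and 84.6% in male T cells (-51.4 points, edgeR adjusted p = 2.11e-23). The tile over the start was at 0% and 1.40% in female and male B cells and 22.3% and 31.4% in T cells. An intronic tile at 1.94 kb had the next lowest levels in B cells, at 4.76% and 2.27%, against 52.8% and 47.6% in T cells. With limma the calls of the tiles at -1.06 kb and 6.94 kb were lost (adjusted p = 0.0554 and 0.164).

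At Tlr9 both directions occurred within 10 kb. Of its 6 called tiles, 3 lay upstream, 1 held the gene start and 2 lay further inside the gene, and 5 of the 6 tiles from 2.10 kb before the start to 2.90 kb after it were called lower in B cells. The uncalled one, at 1.90 kb, differed by -2.22 points. The leading one (chr9:106221001-106222000, between genes, 9 CpGs) was at 35.0% in female B, 36.7% in male B, 91.8% in female T and 91.6% in male T cells (-55.9 points, edgeR adjusted p = 2.56e-33). The sixth, 7.10 kb before the start and over untranslated exon of the neighbouring gene Twf2 (chr9:106215001-106216000, 10 CpGs), was the only called tile in this locus that was higher in B cells. Its levels were 51.5% in female B, 46.4% in male B, 1.75% in female T and 7.43% in male T cells (44.4 points, adjusted p = 1.43e-26).

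At Ly86 the leading tile was the one over the gene start (chr13:37345001-37346000, 31 CpGs, over untranslated and coding exon), at -72.1 points (edgeR adjusted p = 2.15e-108). The tile after it was at 63.0% and 63.1% in female and male B cells and 97.2% and 95.1% in T cells. Further in, an intronic tile at 11.3 kb was at 30.1% and 23.7% in B cells and 71.7% and 75.6% in T cells. An intronic tile at 57.3 kb with 5 CpGs differed by -26.3 points, and its call was lost with limma (adjusted p = 0.0715).

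Tlr6 had 1 called tile, just inside its start (chr5:64959001-64960000, 26 CpGs, partly over the untranslated first exon). It was at 22.2% in female B cells (477 reads, 18.7% to 26.2%) and 26.4% in male B cells (416 reads, 22.4% to 30.9%). In T cells 0 of 501 reads were methylated in females and 0 of 425 in males, which allows levels of up to 0.599% and 0.706% (3 reads of the total, with Wilson upper bounds of 0.761% and 0.896%). The difference was 24.3 points (edgeR adjusted p = 1.58e-45). Ly96 also had 1 called tile, before its start (chr1:16687001-16688000, between genes, 7 CpGs), at 52.5% and 55.6% in female and male B cells and 21.4% and 30.4% in T cells (28.1 points, edgeR adjusted p = 3.72e-05), a call that was lost with limma (adjusted p = 0.0535). The call at Ly96 over the 1 kb before the start rests on the same 7 CpGs, and that window was not fitted with limma.

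Tlr5 and Tlr4 had called tiles although their promoters did not pass. The called tile of Tlr5 was intronic, 4.71 kb inside the gene (chr1:182959001-182960000, 23 CpGs), at 17.8% in female B, 20.1% in male B, 55.2% in female T and 48.9% in male T cells (-33.0 points, edgeR adjusted p = 4.18e-17). Tlr4 had an intronic tile 44.9 kb inside its longest transcript (chr4:66872001-66873000, 8 CpGs), at 65.3% and 64.3% in B cells and 95.6% and 97.2% in T cells (-31.6 points, edgeR adjusted p = 1.88e-11). Its other called tile, centred 0.916 kb inside the gene and partly within the promoter window, was at 13.1% and 11.9% in B cells and 33.8% and 31.4% in T cells (-20.1 points).

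The called tiles of Tlr1 all lay downstream of the gene, between genes, and 1 of the 3 went against the other two. The tile at chr5:64918001-64919000 (9 CpGs) was at 87.7% in female B, 86.2% in male B, 58.2% in female T and 59.4% in male T cells (28.1 points, edgeR adjusted p = 1.48e-09), and its neighbour to the left differed by 22.9 points. The tile at chr5:64922001-64923000 (5 CpGs) was at 60.5%, 46.2%, 85.7% and 88.5% in the same order (-33.8 points, adjusted p = 3.08e-06), and 81.0% of it is annotated as repeat in the reference. At Tlr2 and Tlr3 edgeR and limma called no tile. The largest difference was 17.8 points at Tlr2 (chr3:83840001-83841000, adjusted p = 0.000241) and 17.2 points at Tlr3 (chr8:45409001-45410000, adjusted p = 0.202), both over untranslated exon, and the first was called with CpGs of at least 10 reads (21.8 points) and without female T cells (20.3), and did not pass the adjusted p with limma (0.143) or without male T cells (15.2 points, adjusted p = 0.0673).

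The CpG profiles were compared as stretches of at least 5 successive CpGs with a running mean over 5 CpGs under 50%, described without a test. The 10 loci held 35 such stretches in each B cell library, 27 in female T cells and 25 in male T cells. They covered 32229 bases in female B, 32263 in male B, 22865 in female T and 20097 in male T cells. Stretches were not counted at other genes, so these totals describe the 10 loci alone. A stretch spanned the gene start of 8 genes in female B, 9 in male B, 7 in female T and 7 in male T cells. Tlr2, Tlr4, Tlr5, Tlr6, Tlr9, Cd180 and Ly96 had it in all 4 libraries, Ly86 in both B cell libraries, Tlr1 in male B cells and Tlr3 in none, where the low stretch began 310 to 474 bases after the start of the gene record. At Tlr6 in male B cells the spanning stretch, 6 CpGs at 42.2%, reached only 1 base past the start. A longer stretch in that library began 129 bases after the start. Under 30% the stretches covered 17897, 16541, 12324 and 11507 bases in the same order of libraries and spanned 7, 6, 5 and 5 gene starts, with that of Tlr6 left in T cells alone and that of Tlr9 in B cells alone. That of Tlr2 was left in female B cells alone, since in the other libraries its stretch began 1 base after the start.

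**Figure D4:**
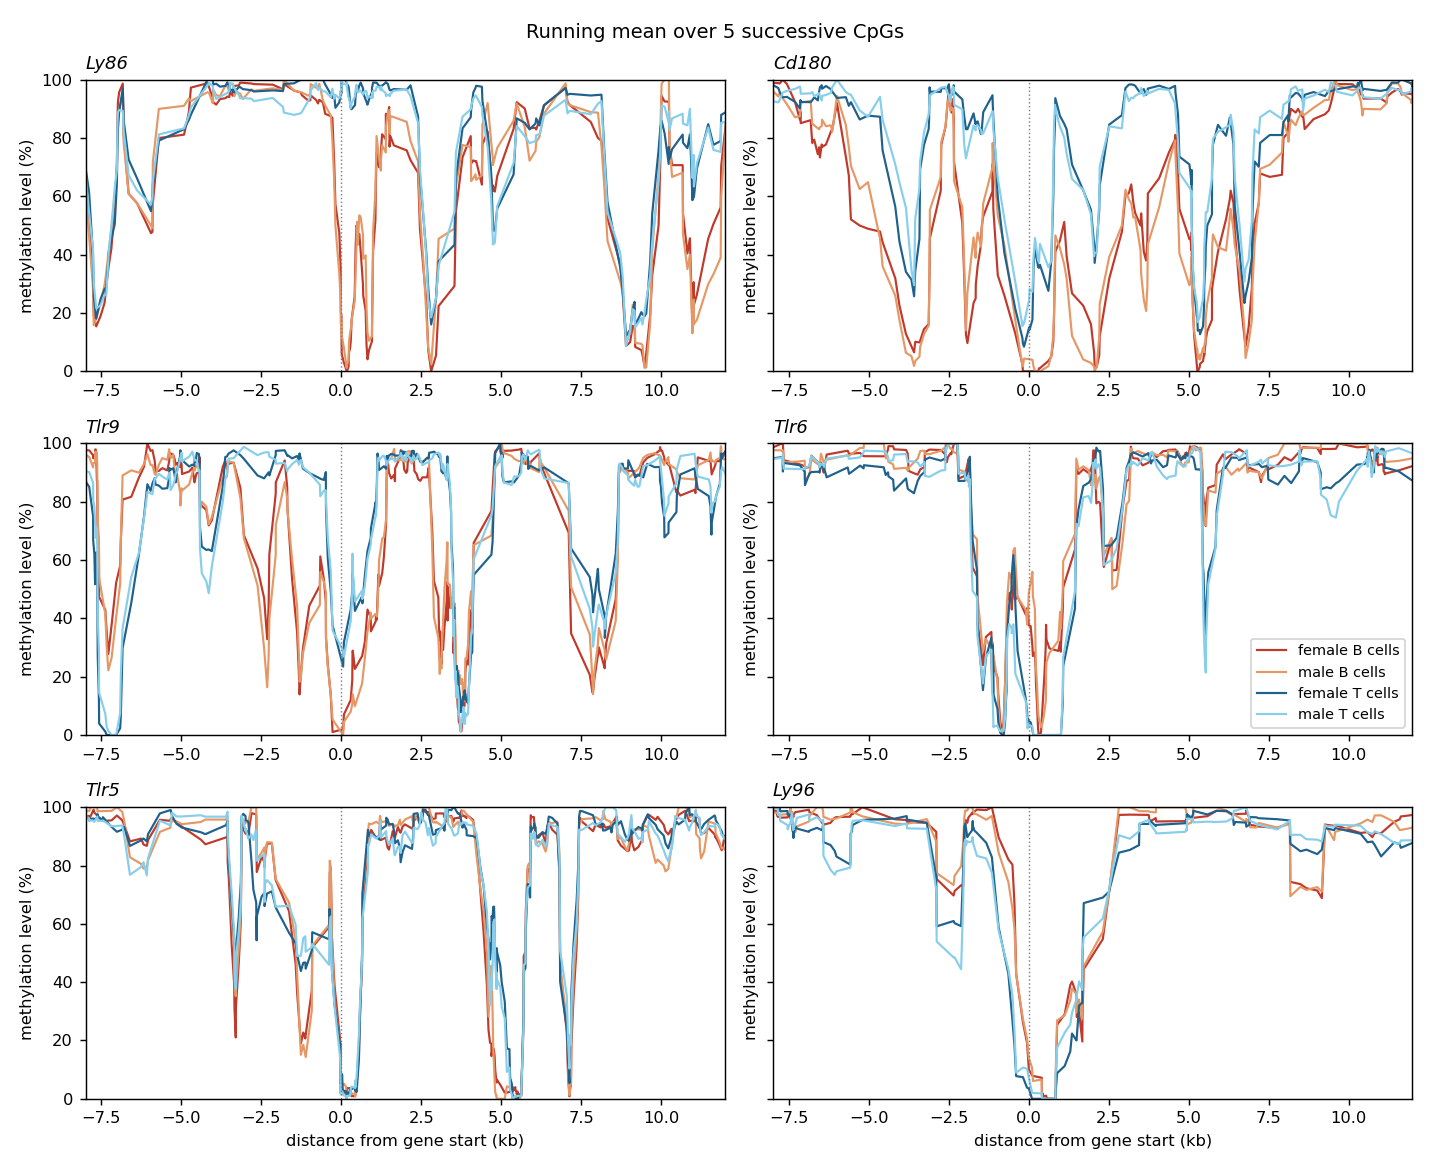
Running mean of the methylation level over 5 successive CpGs (%, y axis) against the distance from the gene start (kb, x axis) at 6 genes, with B cells in red and orange and T cells in dark and light blue. At Ly86 T cells show no dip at 0, at Cd180 the B cell lines run below the T cell lines on both sides of the start, and at Tlr6 and Ly96 the T cell dip reaches further out than that of B cells.

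The lengths of these stretches differed between cell types in both directions. At Cd180 they summed to 7611 and 7734 bases in female and male B cells and 3227 and 1953 in T cells. At Ly86 the sums were 5272 and 5875 bases in B cells and 2395 and 1963 in T cells, and at Tlr9 4769 and 4440 against 2348 and 2525. The stretch over the start of Tlr4 ran 1859 bases in both B cell libraries and 1285 and 1194 in female and male T cells. At Tlr2 it was the longer one in T cells, at 1733 and 1795 bases, against 1207 in both B cell libraries. With a limit of 30% in place of 50% that gap at Tlr2 was gone, at 1062 and 1014 bases in B cells and 1003 and 1014 in T cells. A stretch near the end of Tlr9, between 3397 and 4111 bases from its start, was low in all 4 libraries, at 14.6% to 25.1%, and Tlr5 had a second low stretch in an intron between 4554 and 5760 bases that began nearer to the start in B cells.

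**Figure D5:**
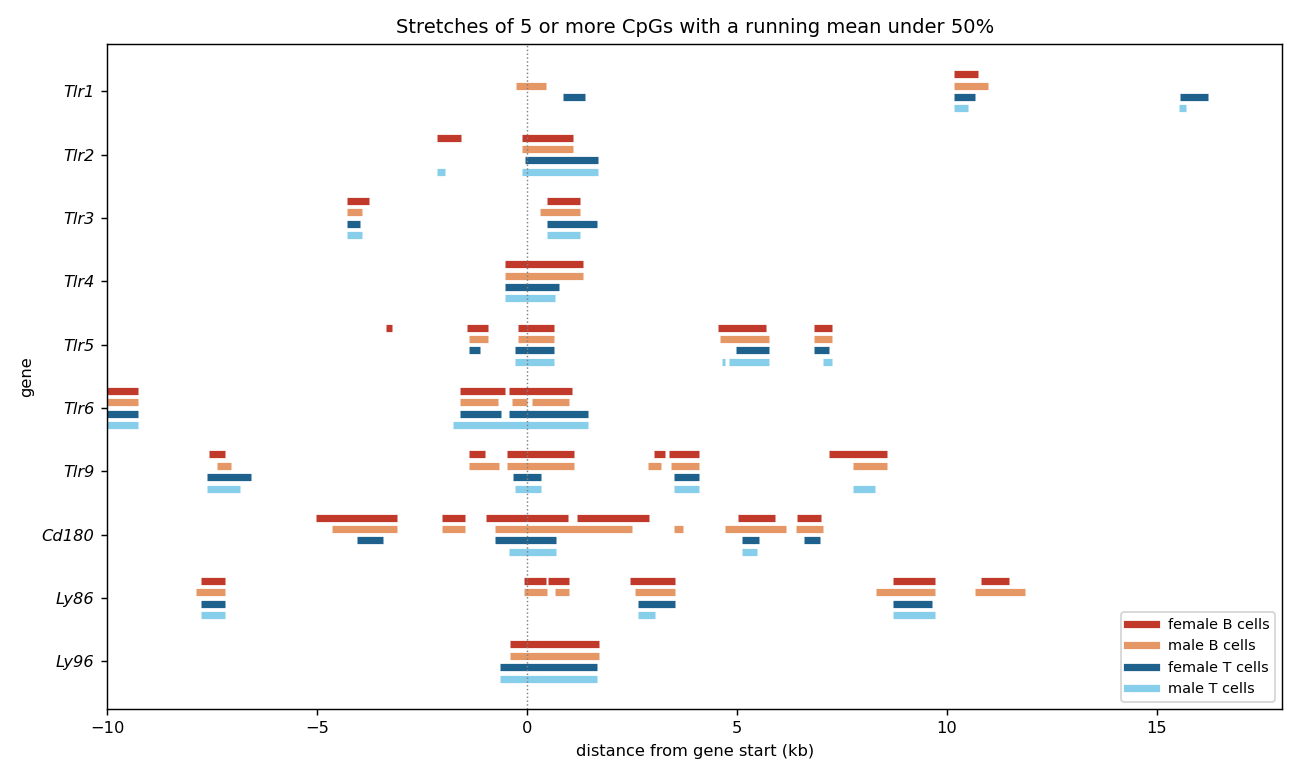
Stretches of 5 or more CpGs with a running mean under 50% (bars) against the distance from the gene start (kb, x axis), with 1 row of bars per library at each gene. Ly86 has bars at 0 in B cells alone, Cd180 has more and longer bars in B cells, and Ly96 and Tlr2 have longer bars in T cells. Stretches more than 18 kb from the start at Tlr5, Cd180 and Ly86 lie outside the axis.

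Single CpGs at least 50 points apart in both sexes were counted in the same way. Among the 4357 CpGs of the loci 89 were that much lower in B cells (2.04%, against 0.255% of all CpGs listed in all 4 libraries) and 19 that much higher (0.436%, against 0.643%). Of the 89, 38 were at Ly86, 24 at Cd180 and 15 at Tlr9. Of the 19 on the other side, 9 were at Tlr1, 4 each at Tlr2 and Tlr9 and 1 each at Tlr6 and Ly96. Tlr3 had none in either direction.

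Short letter patterns known from factors of these lineages were counted in the tiles as a description. GAGGAAGT, as bound by PU.1, was found on either strand in 3 of the 24 tiles lower in B cells and in 9.07% of the 375 tiles of the loci, against 6.19% of all tested tiles. CCCNNGGG, the core of EBF1 sites, was in 5 of the 24, in 22.1% of the locus tiles and in 18.2% of all. TGTGGTT, as bound by RUNX proteins, was in 4 of the 24, in 22.7% of the locus tiles and in 21.7% of all. Of the 5 tiles higher in B cells, 0 held the PU.1 letters, 1 the EBF1 letters and 3 the RUNX letters.

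The rest of the pathway, 40 genes for other receptors, chaperones, adaptors, kinases and NF-kB and IRF factors, was read from the same promoter fit. Of 39 tested promoters edgeR called 0 lower in B cells, against 0.410% of all, and 1 higher, against 0.956%. At the adjusted p alone 3 passed as lower and 6 as higher in B cells and 30 did not pass, while over all promoters 19.9% passed. The median difference was 1.53 points, against 0.970 over all promoters. The one called was that of Ikbke, a kinase that activates IRF3, at 25.2% in female B, 34.2% in male B, 3.87% in female T and 5.49% in male T cells (25.0 points, edgeR adjusted p = 2.68e-20), and this call was kept in 1 of the 4 fits without a library. Of the receptors not among the 10, Tlr12 passed the adjusted p alone, at 31.1% and 36.7% in female and male B cells and 17.9% and 12.4% in T cells (18.8 points). Lbp, which carries lipopolysaccharide to CD14, was at 48.1% and 45.7% in B cells and 60.7% and 59.8% in T cells (-13.4 points). The adaptors Myd88 (4.20 points) and Tirap (-5.60) and the kinase Ikbkb (4.07) passed the adjusted p alone with levels of 15.5% or below in every library. With limma none of these 5 passed (0.0510 to 0.186). The other 3 that passed in edgeR were Hsp90b1 (0.884 points), Pik3ap1 (-3.36) and Tab2 (0.914), of which Tab2 also passed with limma (adjusted p = 0.0157). At Hsp90b1 and Tab2 male B cells were at 1.74% and 1.72%, and every other library was at 0.26% or below.

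The sexes were compared in the same fits. Of the 10 genes edgeR called 0 promoters between females and males, against 1.99% of all tested promoters, and 0 of the 375 tiles, against 0.0865% of all tiles. The 10 genes are autosomal, while both of these shares include regions on X. At an unadjusted p under 0.05 the sex term passed at 0 of the 10 promoters and 16 of the 375 tiles. The share of all regions at that threshold was not counted, so these counts are a description. Among the other pathway genes the promoters of the X-linked genes Tlr7, Irak1, Tab3 and Ikbkg were called higher in females, by 39.0, 33.2, 33.6 and 32.1 points, and that of the X-linked Tlr8 was not called (6.24 points, adjusted p = 0.891). The value at Tlr7 rests on 5 CpGs, at 29.0% of 31 reads in male B and 8.82% of 34 reads in male T cells. With 1 library for each cell type and sex, there is no replicate spread by which to judge whether females and males differ in their B minus T values.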

How the data were processed

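Per the labels, the authors sequenced oxidized bisulfite libraries of splenic B and T cells, and the submitters' processing notes name Trim Galore, FastQC, Bismark 0.13.1 and the build mm10. The deposited files give each CpG with at least 5 reads its methylation level as a fraction, which was rounded up to 3 decimals, and its read count. Both strands were joined in 1 value. Neither removal of duplicate reads nor a joining of the paired samples is given in the sources used here. Positions count from 0 in the files and are printed from 1, and every listed position in the loci lay on a CG of the GRCm38 reference.

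Methylated reads were recovered as the whole number not above fraction times reads. Counts were then added up over the CpGs present in all 4 files, in promoters, gene bodies, flanks and 1-kb tiles with at least 5 such CpGs and 20 reads per library. Methylated and unmethylated counts were fitted with edgeR 4.0.16 (quasi-likelihood, R 4.3.3) with a term per library, for methylation, and for cell type and sex on methylation, which left 1 residual degree of freedom per region. A common dispersion was used and p-values were Benjamini-Hochberg adjusted over all regions of a kind. Tiles and promoters needed a difference of 20 points to be called, bodies and flanks 10. The prior degrees of freedom were infinite for promoters, upstream flanks and tiles, so each region was judged against a shared spread. For gene bodies and downstream flanks they were 17.9 and 339. The residual behind this spread is how far the B minus T difference departs between the sexes. With 1 library per group it cannot be told apart from variation between animals or preparations. limma 3.58.1 on log2 ratios of the recovered counts with 1 read added, other windows, other read minimums and fits without 1 library were alternatives. All value columns of the files were used.

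All 10 genes are named, with the called tile of the largest difference in each direction per locus, or the largest uncalled tile where none was called, and every called promoter among 40 other pathway genes. Further tiles named beside them were chosen after their values were seen. The members and lists were chosen with earlier results of these data known. Tlr13 and Clec7a had too few CpGs in their promoters to be tested.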

Additional observations from a re-analysis of the deposited data

How the results depend on the processing

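No paired analysis was possible because the groups share no replicate numbers and each has 1 library. All values rest on 4 libraries with median depths of 14 to 17 reads per CpG, so a level over fewer than 100 reads is known to no better than several points. Without a minimum difference the calls rose to 6 promoters, 5 gene bodies, 5 upstream flanks, 3 downstream flanks and 68 tiles. The share of all tested tiles that passed the adjusted p alone was not counted. The unweighted mean over CpGs, which changes the size alone and keeps the p of the read counts, took 1 body (Tlr9) and 1 downstream flank (Tlr1) past the required size. Leaving out 1 library gave 1 to 3 called promoters, and 3 to 4 on autosomes alone, with Tlr6 among them as higher in B cells when female B cells were left out, where the common dispersion was 0.00895 to 0.0189 in place of 0.0387 to 0.0436. These fits have no sex term and 1 residual degree of freedom, from the pair of libraries of the other cell type. The same step gave 0 to 1 called bodies (Tlr9 without male B or male T cells), 1 upstream flank, 0 downstream flanks and 28 to 31 tiles. limma gave 3 promoters, 0 bodies, 1 upstream flank, 0 downstream flanks and 25 tiles, 500-base tiles gave 37 of 377, and CpGs of at least 10 reads gave 22 of 276 tiles. Under these alternatives, and in the fits without 1 library, the share of all regions called was not counted. The counts there describe the 10 loci alone. Counts of low stretches under 30% stayed within 1.5 times those under 50%, but the bases they covered did not. Several differences that passed the adjusted p without being called did not pass elsewhere. CpGs of at least 10 reads gave adjusted p = 0.0549 and 0.364 at the upstream flanks of Tlr2 and Tlr4 and 0.0774 and 0.243 at the downstream flanks of Tlr4 and Tlr6. Without 1 library the Ly96 promoter passed in none of the 4 fits (0.101 to 0.314) and the Tlr6 promoter in 1 of them (0.0351 to 0.126), while on autosomes alone they passed in 3 and 4 of the 4 and the Tlr1 promoter in 1.

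Differences that turned sign were all uncalled. The Tlr2 promoter (-0.868) came to 1.04 without female B cells, 0.0370 with CpGs of at least 10 reads and 1.57 with 500 bases on either side. The unweighted mean gave -2.23 at the Tlr3 promoter, 1.59 at the Ly96 body, 0.170 at the Ly86 upstream flank, 1.15 at the Tlr9 downstream flank and -0.0226 at the Ly86 downstream flank, and CpGs of at least 10 reads gave 0.498 at the Ly96 body. Leaving out 1 library gave -2.78 to 1.04 at the Tlr2 promoter, -0.0394 to 2.36 at the Tlr3 body, -1.79 to 3.71 at the Tlr3 and -1.09 to 4.06 at the Tlr6 upstream flank, and -0.291 to 1.90 at the Tlr3 and -0.872 to 0.531 at the Tlr9 downstream flank. The cause of these turns was not tested.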
